A study of Mus musculus with 18 samples.

Results

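RNA bound to the ribosomes of wild-type mouse Purkinje cells was compared between 12 and 4 weeks of age. Of the 18 libraries of the series, 6 entered the comparison, 3 titled wild type at 12 weeks and 3 titled wild type at 4 weeks, chosen by title alone. The study profiled such RNA at 4, 8 and 12 weeks in wild-type mice and in mice carrying CGG90Fmr1, a transgene with 90 CGG repeats driven by the L7 (Pcp2) promoter. Per the labels, every library came from the pooled cerebella of 4 mice, 2 male and 2 female, and each was read on 1 array. All mice, wild type included, were F1 animals with a 50% C57B6 and 50% FVB background and carried 1 copy of an L7/Pcp2 BAC transgene that expresses the ribosomal protein L10a fused to eGFP. The 3 wild-type libraries at 8 weeks and the 6 CGG90 libraries at 12 and 4 weeks are used below as reference values. Littermates served as wild type whenever possible according to the labels, which do not state that replicates came from separate litters, so p-values measure the spread between pools of animals.

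Purkinje cells are the GABAergic output neurons of the cerebellar cortex. They receive parallel fibre and climbing fibre input on a large dendritic tree and fire spontaneously at high rates, which depends on their potassium, sodium and calcium channels and on a high energy turnover. Translating ribosome affinity purification (TRAP) captures tagged ribosomes with an antibody against the fluorescent tag, so the values describe RNA associated with ribosomes in cells where the promoter is active, plus RNA of other cells carried along in the purification. In the mouse, Purkinje cells at weaning age have formed most of their synapses, and the interval up to young adulthood is one of late maturation.

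The sequences of 3 promoters are shown because the genes for sterol and fatty acid synthesis formed the group with the largest median difference among the metabolic groups described below, and because their start regions share a short motif. Capitals mark CCAAT or its reverse complement ATTGG, the core of the site of the transcription factor NF-Y, searched on both strands from 250 bases before to 50 bases after the start site (RefSeq, GRCm38.p6). The genes are Hmgcs1 (3-hydroxy-3-methylglutaryl-CoA synthase, chr13:119690101-119690400, plus strand), Mvd (mevalonate diphosphate decarboxylase, chr8:122443373-122443672, minus strand) and Fasn (fatty acid synthase, chr11:120824498-120824797, minus strand).
Hmgcs1: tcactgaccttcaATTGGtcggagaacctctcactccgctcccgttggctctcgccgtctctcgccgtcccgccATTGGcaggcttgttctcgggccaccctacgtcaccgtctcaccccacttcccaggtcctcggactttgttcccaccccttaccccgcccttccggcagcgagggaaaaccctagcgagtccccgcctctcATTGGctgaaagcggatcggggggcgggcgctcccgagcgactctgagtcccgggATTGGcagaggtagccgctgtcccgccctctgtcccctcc
Mvd: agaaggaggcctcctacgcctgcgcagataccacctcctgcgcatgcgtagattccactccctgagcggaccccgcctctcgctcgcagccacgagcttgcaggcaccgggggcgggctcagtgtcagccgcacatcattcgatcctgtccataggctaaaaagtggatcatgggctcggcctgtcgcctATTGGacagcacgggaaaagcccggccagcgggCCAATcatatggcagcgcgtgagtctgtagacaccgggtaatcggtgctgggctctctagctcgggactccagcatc
Fasn: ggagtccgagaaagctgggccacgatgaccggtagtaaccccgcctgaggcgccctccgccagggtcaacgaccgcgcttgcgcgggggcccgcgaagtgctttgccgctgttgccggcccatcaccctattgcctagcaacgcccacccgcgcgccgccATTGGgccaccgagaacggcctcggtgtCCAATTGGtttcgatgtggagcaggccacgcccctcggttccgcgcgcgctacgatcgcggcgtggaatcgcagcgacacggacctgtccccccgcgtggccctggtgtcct
Hmgcs1 had 4 matches, Mvd 2 and Fasn 3, of which 1 pair in Fasn overlapped as CCAATTGG. A promoter was in the table for 17 of the 22 tested genes of the cholesterol list, and 17 of these 17 held the motif, against 41.1% of all 27025 genes of the table and 43.4% of the 8228 tested genes with a promoter. The motif was in 10 of 25 proteasome promoters (40.0%) and 6 of 15 glycolysis promoters (40.0%). The GC box GGGCGG was in 15 of the 17 cholesterol promoters (88.2%), against 71.0% of tested genes. Also searched were CACGTG (E box) and TGACNNNGC (ARE core). Each was in 4 of the 17 (23.5%), against 12.3% and 16.6% of tested genes. A match describes letters in this window and not a bound site.

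The tag's targets and the label check came first. Pcp2, source of the promoter in the tagging transgene, had log2 values of 14.75, 14.81 and 14.55 at 4 weeks and 14.73, 14.91 and 14.75 at 12 weeks, which overlapped (difference 0.09 ± 0.18, SE). Rpl10a, which encodes the tagged ribosomal protein, had 12.70, 13.20 and 12.75 at 4 weeks and 12.32, 12.87 and 12.85 at 12 weeks (difference -0.20 ± 0.23, SE). Of 20 tested Purkinje cell markers, 13 were higher and 7 lower at 12 weeks, with a median difference of 0.06 and library means of 11.88, 11.65 and 11.41 at 4 weeks and 11.85, 11.78 and 11.32 at 12 weeks. That median turned negative without 12-week replicate 1 (-0.06), 12-week replicate 2 (-0.04) or 4-week replicate 3 (-0.03). Calb1, the calcium buffer calbindin, was lower at 12 weeks in all 3 libraries (13.49, 13.46 and 12.88, against 13.76, 13.66 and 13.59), by -0.39 ± 0.23 (SE), and its other probe sets above background gave -1.61 and -0.76. In the transcript of Fmr1, the gene whose CGG repeat is modelled in the other genotype, wild-type libraries had 6.33, 7.34 and 7.29 at 4 weeks and 7.63, 8.39 and 7.78 at 12 weeks on the brightest probe set, a difference of 0.95 ± 1.11 (SE), while its other probe sets gave -0.76 and 0.36. The libraries labelled CGG90 had 11.66, 11.52 and 11.72 on this probe set at 4 weeks but 7.10, 6.03 and 12.01 at 12 weeks, so the libraries labelled CGG90 12 weeks replicates 1 and 2 lay at the level of wild type. Every CGG90 value below rests on those labels. The SEs rest on them too, since the fit pools the spread of all 6 groups. For Fmr1 the SE thus includes the wide spread of the CGG90 12-week libraries, while the wild-type libraries did not overlap between the ages on the brightest probe set.
The Y-linked genes went against the stated sex ratio in part. Eif2s3y had log2 values of 4.27 in wild-type 12-week replicate 3 and 2.43 in the library labelled CGG90 4 weeks replicate 3, and Kdm5d had 2.87 and 2.18. The mean of both genes was 3.57 and 2.30 in these libraries, against 5.41 to 7.41 in the other wild-type libraries at 12 and 4 weeks. In the library labelled CGG90 4 weeks replicate 3 both were thus at background, against the label of 2 males. Without wild-type 12-week replicate 3 0 genes passed (limma, 567 at an unadjusted p below 0.05), and the medians of the main gene groups without it were -0.75 (cholesterol synthesis), -0.37 (proteasome) and -0.30 (glycolysis).

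Libraries were similar in overall level: over the 18, medians of all probe sets lay between 2.56 and 2.72 and upper quartiles between 6.30 and 6.78 on the deposited log2 scale. Replicates correlated at r of 0.920 to 0.957 at 4 weeks and 0.896 to 0.936 at 12 weeks across genes, and the median SD of a gene was 0.40 and 0.52. The 3 immunoprecipitation dates at 12 weeks all preceded the 3 dates at 4 weeks, with 0 dates shared, and a number in the library titles differs between the 3 ages and is shared within each. Age therefore cannot be told apart from purification date or from what that number stands for. As regards the number, this also holds for the 8-week values and for CGG90. The 12- and 4-week CGG90 libraries carry the same numbers as wild type. The 18 libraries had 11 immunoprecipitation dates, so some libraries shared a date. Whether CGG90 libraries shared dates with wild type is not given here, so CGG90 is not taken as independent of wild type. A second number in the titles is consecutive over the wild-type 8-week and the wild-type and CGG90 4-week libraries. It is also consecutive over the CGG90 12- and 8-week libraries, while the wild-type 12-week libraries form a separate run. Markers of other cerebellar cells (64 tested genes) averaged 6.53, 8.06 and 8.82 in the 4-week libraries and 7.57, 7.24 and 7.71 in the 12-week libraries, so 4-week replicate 1 was the lowest and replicate 3 the highest of the 6. In the CGG90 4-week libraries they averaged 6.83, 7.76 and 8.93, in the same order of replicates as in wild type. In such pooled tissue, fewer cells of a type and less RNA per cell cannot be told apart.

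**Figure D1:**
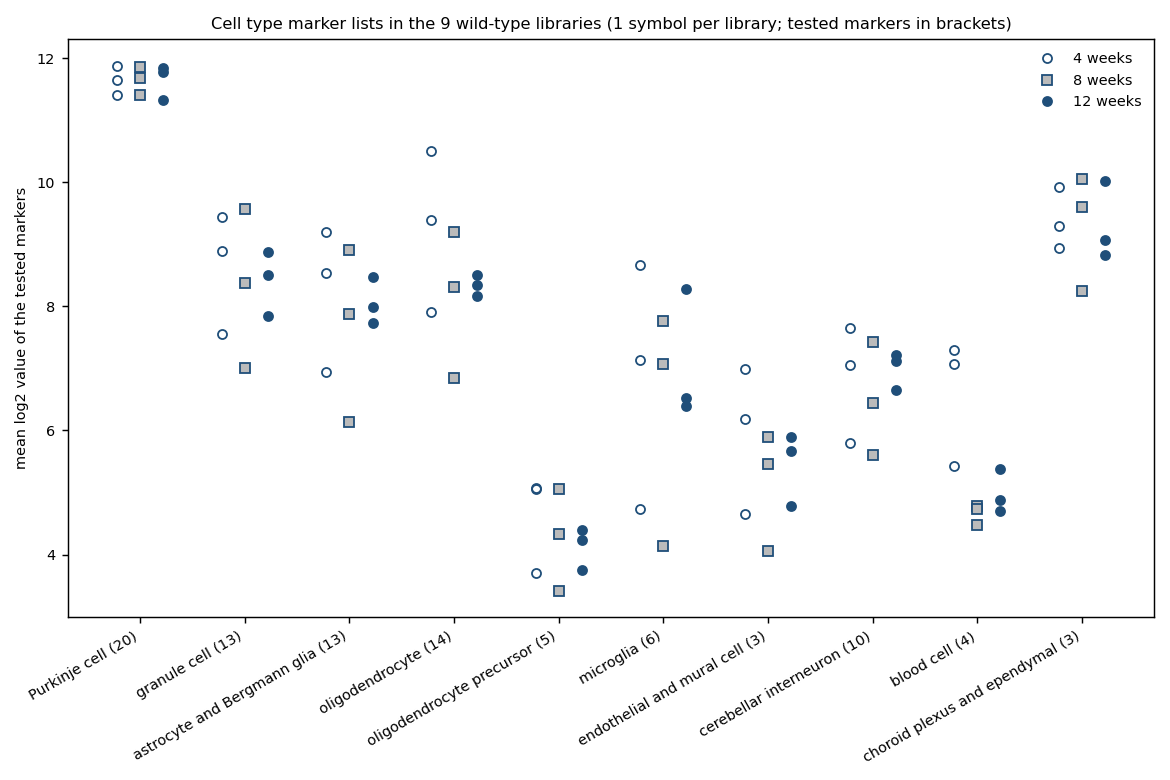
Mean log2 value of the tested markers of 10 cell types (number of markers in brackets) in each wild-type library, at 4 weeks (open circles), 8 weeks (grey squares) and 12 weeks (filled circles). Purkinje markers lie between 11.32 and 11.88 in all 9 libraries, while oligodendrocyte markers spread from 7.91 to 10.51 among the 4-week libraries.

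No gene passed the threshold between 12 and 4 weeks (limma, Benjamini-Hochberg adjusted p below 0.05, 0 of 10068 genes, 0%), and the smallest adjusted p was 0.0697. At an unadjusted p below 0.05 there were 890 genes, where 503.4 would be reached by the threshold alone. Of these, 260 (2.58% of genes tested) were higher and 630 (6.26%) lower at 12 weeks, with median differences of 0.98 and -1.04. Over all genes the median difference was -0.13, with 5987 lower and 4080 higher, and values below should be read against that shift. The median SE of a difference was 0.47.
The 3 libraries at 12 weeks lay entirely above the 3 at 4 weeks in 509 genes (5.06%) and entirely below them in 990 genes (9.83%). In CGG90 the same held for 606 genes (6.02%) and 885 genes (8.79%). In both genotypes at once it held for 89 genes (0.884%) above and 232 genes (2.30%) below, which is 17.5% and 23.4% of the wild-type sets and 14.7% and 26.2% of the CGG90 sets.

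The top 20 genes by p, split evenly between the directions, did not pass the threshold and are given as values. At the head were Golm2, Sbds, Larp7 and Parp2, each with an adjusted p of 0.0697 (limma, Benjamini-Hochberg). Golm2 (gene ID 319996), a membrane protein of the Golgi apparatus, had log2 values of 8.88, 9.40 and 9.51 at 4 weeks, 9.57, 10.05 and 9.79 at 8 weeks and 11.56, 10.69 and 10.63 at 12 weeks. Its 12-week libraries lay above all others, and the difference between 12 and 4 weeks was 1.70 ± 0.28 (SE), or 3.25-fold. Its second probe set gave 0.27. In CGG90 it went from 9.26, 9.68 and 9.74 to 10.32, 10.70 and 10.73.
Sbds (gene ID 66711), which helps release the large ribosomal subunit for translation, had 8.58, 8.79 and 8.88 at 4 weeks, 7.78, 7.40 and 8.20 at 8 weeks and 6.87, 7.23 and 6.13 at 12 weeks. The 3 ages did not overlap, and the difference was -2.01 ± 0.32 (SE), which makes the 4-week level 4.01-fold the 12-week level. In CGG90 the difference was -0.63. Larp7 (gene ID 28036), a binding protein of the 7SK RNA, had 8.84, 8.08 and 8.89 at 4 weeks and 6.73, 6.87 and 6.41 at 12 weeks, a difference of -1.93 ± 0.31 (SE), and its second probe set gave -1.65. Parp2 (gene ID 11546), a poly(ADP-ribose) polymerase of DNA repair, had 7.26, 6.30 and 6.09 at 4 weeks, 5.34, 4.44 and 5.0 at 8 weeks and 4.09, 4.10 and 4.27 at 12 weeks, a difference of -2.40 ± 0.40 (SE). Its ages did not overlap in wild type, and its CGG90 difference was -0.19.

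Among the other genes higher at 12 weeks, Ddn (dendrin), whose RNA is carried into dendrites, had the largest positive difference of all genes tested at 3.66 ± 0.69 (SE). Its 4-week values were 2.42, 3.01 and 5.42, its 8-week values 3.05, 3.38 and 3.55, and its 12-week values 8.05, 7.22 and 6.56. The 12-week wild-type libraries lay well above the others, and the CGG90 libraries lay between 2.33 and 4.44 at 4 and 12 weeks. Its lowest 4-week values were near the median of all probe sets of a library. Cacng7, an auxiliary subunit of AMPA receptors, had 8.66, 9.17 and 8.25 at 4 weeks, 9.81, 8.95 and 9.10 at 8 weeks and 10.49, 10.34 and 10.31 at 12 weeks, a difference of 1.69 ± 0.33 (SE), against 0.39 in CGG90 and 0.26 on its second probe set. Nectin4, a cell adhesion molecule, had 3.43, 3.42 and 3.05 at 4 weeks and 4.51, 6.27 and 6.00 at 12 weeks, a difference of 2.29 ± 0.45 (SE). Its 4-week values were all below 4, so it passed the filter through the higher libraries and its difference depends on values near background.
Kazald1, a secreted protein with a Kazal-type protease inhibitor domain, reached its higher level by 8 weeks. Its values were 9.23, 8.81 and 8.11 at 4 weeks, 10.85, 10.23 and 10.77 at 8 weeks and 10.23, 10.39 and 10.79 at 12 weeks. Rnf11, a RING finger protein of ubiquitin signalling, was likewise above its 4-week values (12.15, 12.00 and 11.87) at 8 weeks (12.61, 12.66 and 12.62) and at 12 weeks (12.81, 12.70 and 12.84). Both genes had a difference of nearly the same size in each genotype, 1.75 and 1.83 for Kazald1 and 0.78 and 0.81 for Rnf11. All 4 probe sets of Rnf11 were higher at 12 weeks, by 0.61 to 1.67. The other genes of this direction were Tmem74b (1.28), Tvp23b (0.97, a Golgi membrane protein), Zmynd19 (1.23) and Rev3l (1.09, the catalytic subunit of DNA polymerase zeta), the last below 4 in every 4-week library.

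Among the other genes lower at 12 weeks, Mcts2, an intronless relative of the translation factor Mcts1 whose RNA the probe set may also read, had 8.64, 8.81 and 8.90 at 4 weeks and 7.54, 7.21 and 6.70 at 12 weeks, a difference of -1.64. Pus1, a pseudouridine synthase, had 8.05, 8.05 and 7.20 against 5.72, 6.39 and 4.95, a difference of -2.08. Gpatch11, a G-patch protein, had 5.30, 5.20 and 5.07 at 4 weeks and 3.23, 2.82 and 2.56 at 12 weeks, a difference of -2.32, while CGG90 gave 0.42 with overlapping libraries.
Pknox1, a homeodomain transcription factor, had its lower values at the last age, with 7.53, 7.18 and 7.84 at 4 weeks, 7.51, 7.89 and 7.30 at 8 weeks and 5.76, 5.94 and 5.51 at 12 weeks. Its other probe sets gave 0.10 and -0.23, so the difference rests on 1 of 3 probe sets. Dnajc17, a J-domain protein of the spliceosome, was already low at 8 weeks (6.11, 5.06 and 5.26), against 7.64, 7.61 and 7.77 at 4 weeks and 6.25, 5.96 and 5.13 at 12 weeks, with -0.39 and -1.51 for 12 against 4 weeks on its other probe sets. Rnf20, the ligase that attaches ubiquitin to histone H2B, had a difference of -1.15, with -0.72, -0.41 and -0.01 on its other probe sets. Pgk1 (phosphoglycerate kinase) is described with glycolysis.

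**Figure D2:**
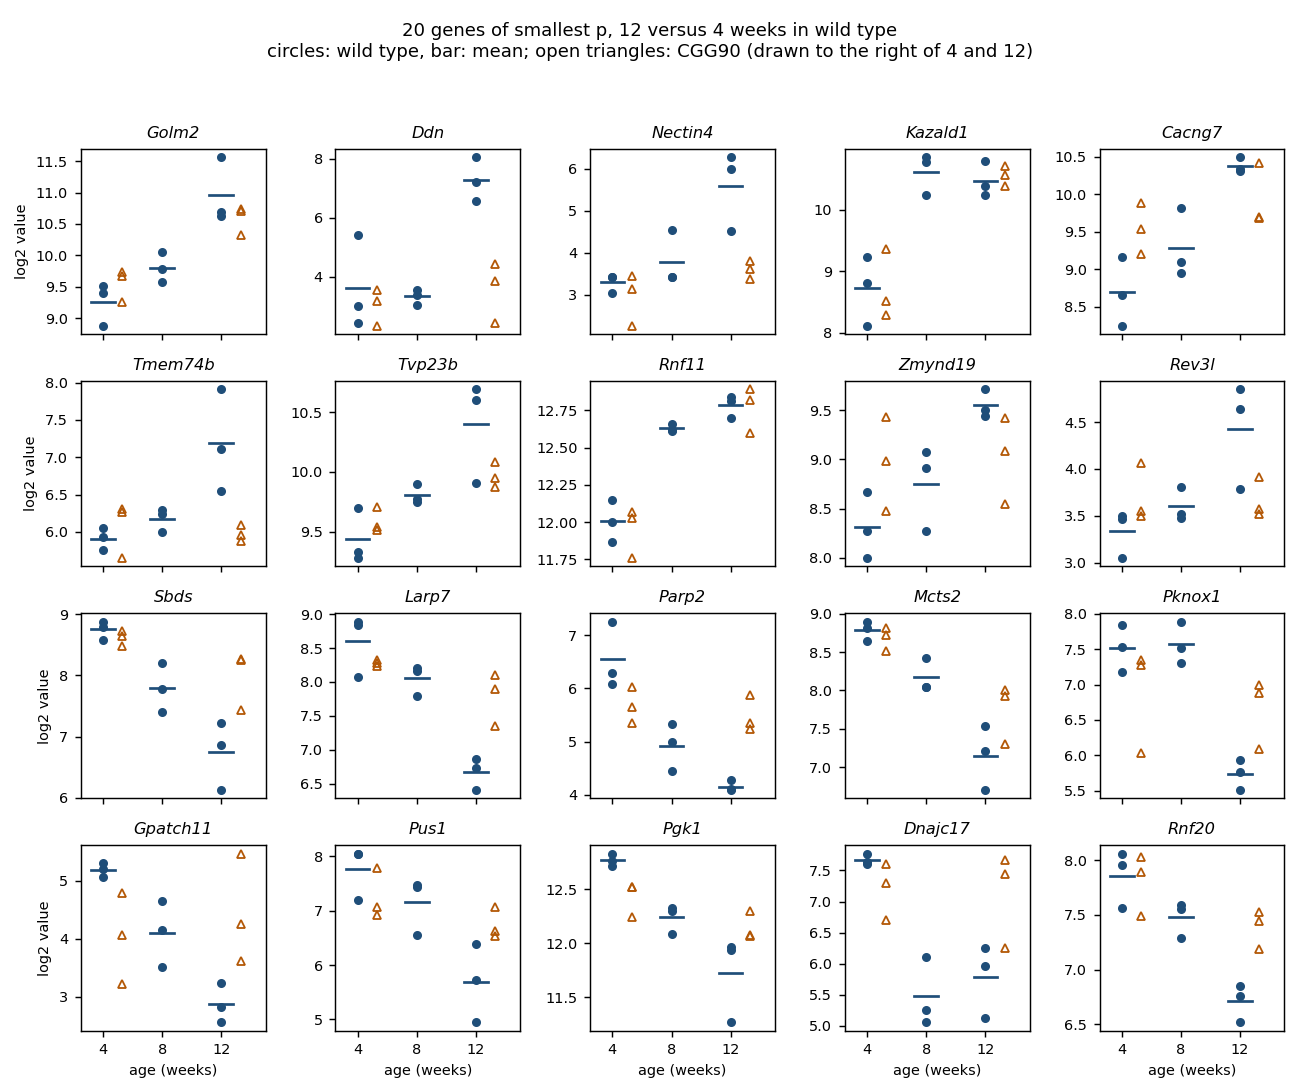
Log2 value of each library for the 20 genes of smallest p against age in weeks: wild type as filled circles with a bar at the mean, CGG90 at 4 and 12 weeks as open triangles. The 12- and 4-week wild-type libraries do not overlap in any panel, and the 8-week mean lies between the other 2 means in 16 panels, all but Ddn, Kazald1, Pknox1 and Dnajc17.

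These 20 genes were chosen by the contrast of 12 against 4 weeks in wild type. The 8-week and CGG90 values lay outside that contrast, but in them too age goes with the title number that is shared within each age. The 8-week mean lay between the other means in 16 of the 20, against 39.9% of all genes tested, although the choice of genes with a large difference favours such an order. The CGG90 difference had the same sign in 17 of 20, against 65.0% of all genes tested, and was smaller in size in 18, which the choice by wild-type values favours. In 7 of 20 the CGG90 libraries did not overlap in the same direction. All 20 were without overlap in wild type, and among all such genes the share was 17.5% (higher) and 23.4% (lower). Over all genes tested it was 6.02% and 8.79%. The difference between the genotypes' age differences did not pass for any gene (limma interaction, smallest adjusted p 1.000, 266 genes at an unadjusted p below 0.05). In CGG90 alone 0 genes passed (smallest adjusted p 0.109, 823 genes at an unadjusted p below 0.05).
Averaged over both genotypes, a comparison added after the data were seen, 2 genes passed (0.0199%), Kazald1 with an adjusted p of 0.0258 and Golm2 with 0.0353 (limma, Benjamini-Hochberg). These calls did not hold when 1 library was left out: 0 genes passed in 11 of the 18 such fits, those without wild-type 12-week replicate 1 or 3, wild-type 4-week replicate 2 or 3, wild-type 8-week replicate 1 or 3, CGG90 12-week replicate 1 or 2, CGG90 4-week replicate 1 or 3, or CGG90 8-week replicate 3. It was 0 also without both CGG90 12-week replicates 1 and 2, whereas 29 passed without wild-type 12-week replicate 2 and 22 without CGG90 12-week replicate 3. With all libraries, other settings gave 1 to 34 genes, the highest with a trended and robust prior.

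Genes for sterol and fatty acid synthesis were lower at 12 weeks as a group. The pathway builds cholesterol from acetyl-CoA through mevalonate, farnesyl diphosphate and squalene, and neurons in young brain make part of their own membrane cholesterol. Of 22 tested members 19 were lower and 3 higher, with a median difference of -0.70 against -0.13 over all genes. The libraries did not overlap in 7 members (31.8%, against 9.83% of all genes), and none of the 22 passed the test.
Hmgcs1, which makes the precursor of mevalonate, had 11.98, 12.66 and 12.93 at 4 weeks, 11.21, 12.46 and 11.37 at 8 weeks and 11.35, 10.90 and 11.64 at 12 weeks, a difference of -1.23 ± 0.39 (SE, adjusted p = 0.451, limma). Mvd, the last step of the mevalonate route, had 7.22, 7.65 and 7.64 at 4 weeks and 4.88, 6.57 and 6.35 at 12 weeks, a difference of -1.57 ± 0.51 (SE). In both genes the 12-week libraries all lay below the 4-week ones. Fdps, which makes farnesyl diphosphate, had 6.40, 7.55 and 7.86 at 4 weeks, 5.73, 6.48 and 5.57 at 8 weeks and 4.33, 5.50 and 2.12 at 12 weeks. That difference of -3.29 ± 0.91 (SE) was the largest of the list, and it was -2.33 in CGG90, also without overlap.
Fdft1, which makes squalene, had a difference of -1.15 with -1.12 on its second probe set above background, and Dhcr7, the last step to cholesterol, had -1.21. Sc5d (-1.21) and Hsd17b7 (-0.67), later steps of the route, also did not overlap. Sqle (-1.63) and Cyp51 (-1.18) overlapped at 4-week replicate 1 (5.69 and 7.91), which lay among the 12-week values. Fasn, whose promoter is shown above, had 6.79, 7.75 and 7.27 at 4 weeks and 6.41, 6.79 and 6.27 at 12 weeks (difference -0.78), but was lower still at 8 weeks (5.60, 4.77 and 4.40). Srebf2, the transcription factor of the pathway, had a difference of 0.18, and Insig1, its inhibitor, -0.19. However, Srebf2 gave -0.09 and Insig1 -0.57 without 4-week replicate 1, and Insig1 gave 0.20 without 4-week replicate 3. The Srebf2 probe set was near background, with means of 3.80 at 4 weeks and 3.98 at 12 weeks, and its other probe set gave -0.68.
The mean of the list was 7.39, 8.43 and 8.57 in the 4-week libraries, 7.52, 7.69 and 7.38 at 8 weeks and 7.37, 7.52 and 7.14 at 12 weeks. Replicate 1 at 4 weeks was thus at the 12-week level, and it was also the 4-week library with the lowest level of other cells' markers. The median of the list was -1.02 without it and -0.59 with the mean of those markers as a covariate. In CGG90 the median was -0.48 with 18 of 22 lower, and the list mean was 7.52, 8.02 and 8.25 at 4 weeks and 7.03, 7.52 and 7.70 at 12 weeks.

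Proteasome subunits had smaller differences, and all in 1 direction. The proteasome degrades ubiquitinated proteins in a barrel of alpha and beta subunits (Psma and Psmb) capped by ATPases (Psmc) and further regulatory subunits (Psmd). All 31 tested subunits were lower at 12 weeks, from -1.18 to -0.11, with a median of -0.50, and 29 of 31 were below the median of all genes. The libraries did not overlap in 16 subunits (51.6%, against 9.83%), and 12 had an unadjusted p below 0.05 (38.7%, against 6.26%), but none passed.
Psmd6 had 10.34, 10.79 and 10.81 at 4 weeks, 9.95, 10.32 and 10.37 at 8 weeks and 9.61, 9.83 and 9.53 at 12 weeks, a difference of -0.99 ± 0.28 (SE, adjusted p = 0.394, limma), with -1.02 on its second probe set. Psma5 had 11.25, 11.05 and 11.27 at 4 weeks and 10.40, 10.76 and 9.47 at 12 weeks (-0.98), and Psmb5, a catalytic subunit, had 11.37, 11.55 and 11.07 against 10.68, 11.03 and 9.96 (-0.78). Psma4 had the largest difference (-1.18), with 9.85, 10.49 and 8.39 at 12 weeks. In Psma5, Psmb5 and Psma4, as in the list mean, replicate 3 at 12 weeks was the lowest library.
List means were 11.32, 11.47 and 11.30 at 4 weeks, 11.03, 10.87 and 11.17 at 8 weeks and 10.87, 11.08 and 10.46 at 12 weeks. All 8-week and 12-week means lay below all 4-week means. Without 12-week replicate 3 the median was -0.37. In CGG90 the median was -0.43, 28 of 31 were lower and 15 did not overlap (8.79% of all genes were lower without overlap there), with list means of 11.31, 11.28 and 11.30 at 4 weeks and 10.70, 10.78 and 11.13 at 12 weeks. The means of other cells' markers, given above, overlapped between the ages, and the median of the list was -0.53 with them as a covariate. The part of other cells' RNA in the proteasome values was not tested.

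**Figure D3:**
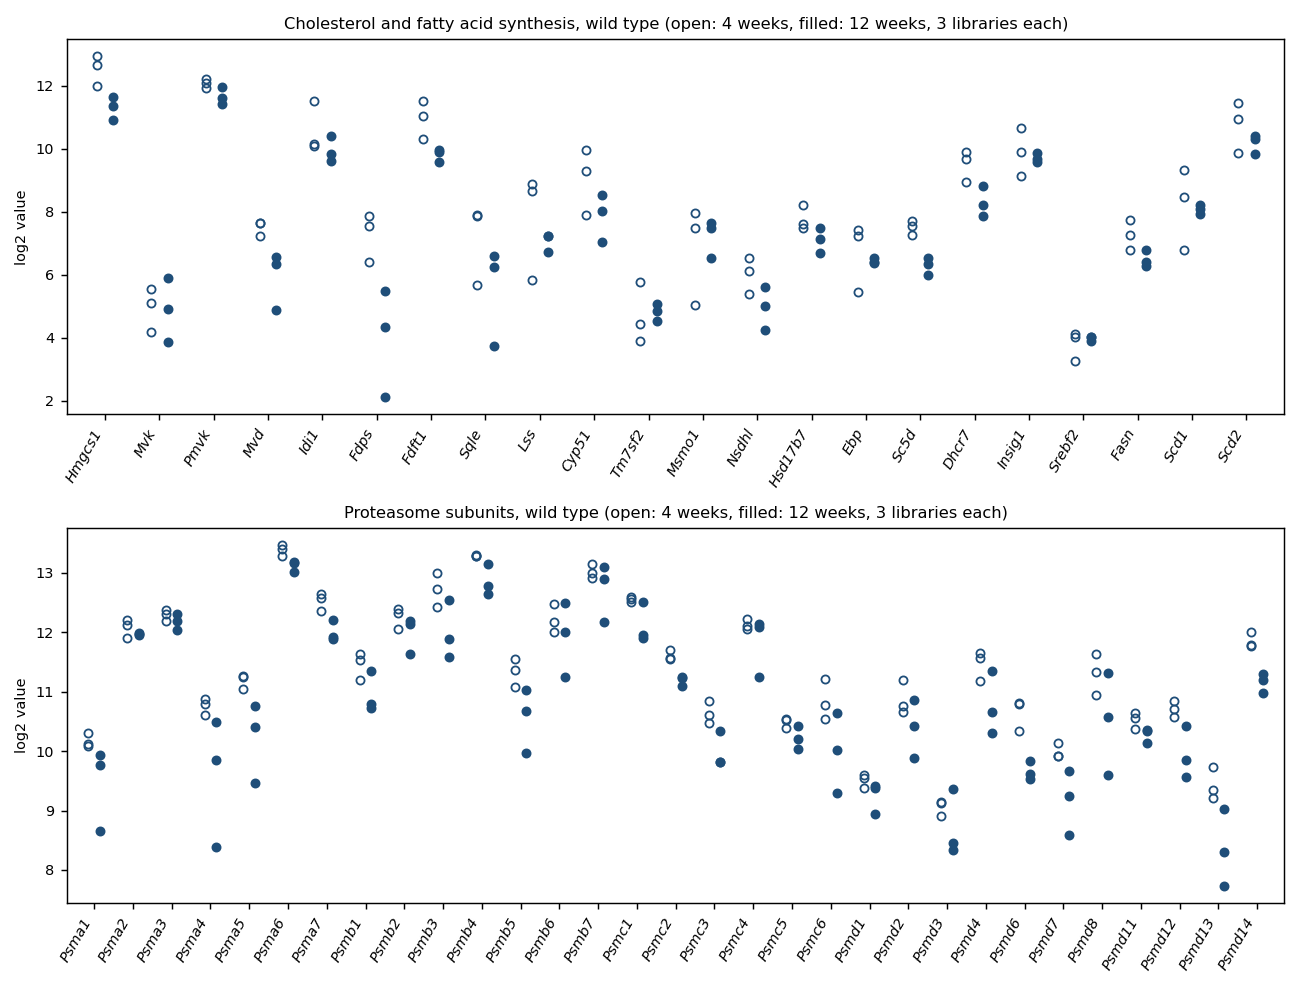
Log2 values of the 3 libraries at 4 weeks (open) and the 3 at 12 weeks (filled) for each tested gene of the cholesterol list (top) and each proteasome subunit (bottom) in wild type. The 12-week values of the subunits sit below their 4-week values on average in 31 of 31 cases, and Fdps has the widest gap of the sterol genes.

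Glycolysis genes were also lower, and those of oxidative phosphorylation were near the shift of all genes. All 16 tested glycolysis genes were lower at 12 weeks, with a median of -0.42, and 9 did not overlap (56.2%, against 9.83%). Pgk1, the first ATP-yielding enzyme of the route, was among the 20 genes of smallest p. It had 12.72, 12.76 and 12.83 at 4 weeks, 12.33, 12.09 and 12.30 at 8 weeks and 11.97, 11.94 and 11.27 at 12 weeks, a difference of -1.04 ± 0.22 (SE, adjusted p = 0.207, limma), with -0.69 and -0.64 on its other probe sets. Its 3 ages did not overlap, and CGG90 gave -0.27.
Ldha (lactate dehydrogenase A) had a difference of -0.85 without overlap, and Pfkm (phosphofructokinase) had 9.70, 10.54 and 10.17 against 9.50, 9.67 and 8.53 (-0.90). Smaller differences without overlap were found for Eno2 (-0.42), Tpi1 (-0.39) and Aldoc (-0.43), the aldolase also known as zebrin II. The median of the list was -0.30 without 12-week replicate 3, and -0.37 in CGG90.
Of 52 oxidative phosphorylation genes 41 were lower, but their median of -0.13 equalled that of all genes. The libraries did not overlap downwards in 13 (25.0%, against 9.83% of all genes) and upwards in 3 (5.77%, against 5.06%), and the CGG90 median was -0.10. Uqcrc2, a core subunit of complex III, had 13.04, 12.97 and 12.72 at 4 weeks and 12.31, 12.43 and 11.53 at 12 weeks (-0.82). Ndufa9 of complex I had a difference of -0.73 and Sdha of complex II -0.49. The other probe set above background gave -1.14 for Uqcrc2 and -0.15 for Sdha.

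Chaperones and ribosomal proteins had smaller medians. Of 14 heat shock genes 13 were lower, with a median of -0.39 that was -0.25 without 4-week replicate 3, and 4 did not overlap (28.6%, against 9.83%). In CGG90 the median was -0.09 with 8 of 14 lower. Hspd1, the mitochondrial chaperonin, had 11.49, 11.23 and 11.41 at 4 weeks and 10.60, 10.83 and 10.70 at 12 weeks (-0.67, CGG90 -0.11), and Dnaja1, an Hsp70 co-chaperone, had a difference of -0.82. The exception was Hspb1, a small heat shock protein, at 1.20 with overlapping libraries. The 17 genes of the unfolded protein response had a median of -0.08, which turned to 0.05 when each library was centred on its median gene.
Cytoplasmic ribosomal proteins, 38 of them tested, had a median of -0.07 and 24 were lower. That median turned to 0.06 with the same centring and to 0.04 without 12-week replicate 1. Rpl7 was lower (11.60, 11.81 and 12.04 against 10.86, 11.32 and 10.88, a difference of -0.80, with CGG90 -0.72), as was Rpl4 (-0.61). Genes of this family have many processed copies, so their probe sets are uncertain.

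Of 11 tested genes for the RNA-binding protein FMRP and its partners, 9 were lower, with a median of -0.63. Fmr1 itself, which encodes FMRP, was higher on its brightest probe set (0.95). The libraries did not overlap downwards in 4 (36.4%, against 9.83% of all genes) and upwards in 1 (9.09%, against 5.06%). Caprin1, an RNA granule protein, had 11.37, 10.84 and 11.39 at 4 weeks, 10.47, 10.59 and 10.72 at 8 weeks and 9.87, 10.40 and 9.43 at 12 weeks, a difference of -1.29 ± 0.31 (SE, adjusted p = 0.312, limma). All 6 of its probe sets were lower, from -1.29 to -0.50, and the CGG90 difference was -0.56 without overlap. Tardbp, the RNA-binding protein TDP-43, had 9.92, 9.69 and 10.46 against 9.12, 8.37 and 9.49 (-1.03), and Hnrnpa2b1, which binds CGG repeat RNA, had -0.65 with overlap. Fxr1, the paralogue of Fmr1, had 9.75, 8.92 and 9.56 against 8.82, 8.69 and 8.77 (-0.65, with -0.51 and -2.15 on its other probe sets above background). The list ran from -1.29 to 0.95, and its median was -0.22 with array weights and -0.26 in CGG90.

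Ion channels differed little as groups. Of 23 potassium channel genes 15 were higher, with a median of 0.23 (0.36 above that of all genes) that was 0.02 without 4-week replicate 1, and 3 did not overlap upwards (13.0%, against 5.06%). In CGG90 the median was 0.07, with 12 higher and 11 lower. Kcnma1, the pore of the BK channel that ends the Purkinje action potential, had 9.64, 10.34 and 9.15 at 4 weeks, 10.92, 10.71 and 10.28 at 8 weeks and 11.69, 10.78 and 10.69 at 12 weeks. The difference was 1.34 ± 0.39 (SE, adjusted p = 0.408, limma), with 0.59 and 0.72 on its other probe sets above background and 0.66 in CGG90. Kcnmb4, its beta subunit, had a difference of 0.31 and Kcnj9, a G protein-gated channel, 0.55, both without overlap, although another probe set of Kcnj9 gave -0.43. Dpp10 (0.77) and Kcnip4 (0.49), auxiliary subunits of Kv4 channels, overlapped.
Scn4b, the subunit tied to resurgent sodium current, had 11.07, 11.02 and 10.25 against 12.00, 11.55 and 10.95 (0.72), also with overlap. The 9 sodium channel genes had a median of 0.09, which was -0.22 without 12-week replicate 1, -0.13 without 4-week replicate 1 and -0.09 in the mean of each gene's probe sets. The 12 calcium and HCN channel genes had a median of 0.11, which was -0.07 without 12-week replicate 1. Cacna2d2, the auxiliary subunit mutated in ducky mice, had a difference of 0.56. Cacna1e, the R-type channel, had 7.45, 6.07 and 7.19 against 5.70, 3.31 and 5.15 on its brightest probe set (-2.18), while its other probe set gave 1.19, so its direction depends on the probe set.

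Synaptic genes were mixed. The 14 dendritic and postsynaptic transcripts, Ddn among them, had a median of 0.10 that was -0.05 in the mean of each gene's probe sets, and 2, Ddn and Homer1, did not overlap upwards (14.3%, against 5.06%). The CGG90 median was 0.01. Homer1, a postsynaptic scaffold, had 5.65, 5.50 and 6.06 against 7.66, 6.72 and 7.80 on its brightest probe set, a difference of 1.66 ± 0.66 (SE) that turned to -0.08 in the mean of all its probe sets, since the others gave -0.97 to -0.02. Camk2a, the alpha subunit of CaM kinase II, had 11.13, 10.11 and 8.91 against 11.31, 11.29 and 11.03 (1.16), which overlapped. Its other probe sets above background gave 0.15, 0.25 and -0.43.
The 23 glutamate receptor and metabotropic genes had a median of -0.11, which centring each library turned to 0.02. Grm7, a presynaptic metabotropic receptor, had 7.30, 7.66 and 7.95 at 4 weeks and 8.58, 8.59 and 8.01 at 12 weeks (0.76 ± 0.25, SE, CGG90 0.58), without overlap in either genotype. The 15 GABA genes had a median of -0.05, which the same centring turned to 0.09, and Gabbr1, a subunit of the GABA-B receptor, had 13.54, 13.81 and 13.49 against 14.29, 14.05 and 13.97 (0.49, with 1.23 and 0.25 on its other probe sets above background). Synaptic vesicle genes were lower in 15 of 22, with a median of -0.24 that was -0.01 without 4-week replicate 3.

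Structural genes of the axon and immature cytoskeleton were lower in part. Of 24 neurofilament and axon genes 17 were lower, with a median of -0.27, and 7 did not overlap downwards (29.2%, against 9.83%) while 2 did not upwards (8.33%, against 5.06%). Nefm, the medium neurofilament, had 10.69, 10.45 and 10.80 at 4 weeks, 9.98, 10.63 and 10.24 at 8 weeks and 9.77, 9.97 and 9.78 at 12 weeks, a difference of -0.81 ± 0.22 (SE, adjusted p = 0.384, limma), against -0.22 in CGG90. The tubulins Tubb3 (13.39, 13.15 and 13.12 against 12.44, 13.09 and 11.41, difference -0.91) and Tubb2a (-0.50), the stathmin Stmn4 (-0.49) and the filament protein Ina (-0.48) were on the same side. On the other side were Map1a, a microtubule protein of dendrites (1.25), and Nfasc, which anchors the axon initial segment (0.80), with 0.25 and -0.55 on their second probe sets above background. The median of the list was -0.16 without 12-week replicate 3 and -0.24 in CGG90. The 20 genes of neuronal immaturity had a median of -0.19, which was 0.10 without 4-week replicate 3 and 0.29 in CGG90, where 14 of 20 were higher. Hmgb2, a chromatin protein of dividing cells, gave 1.31 on its brightest probe set and -1.07 on another. The protease gene Adamts4 was the member without overlap among 12 perineuronal net and matrix genes (8.33%, against 9.83% of all genes downwards). It had 9.95, 9.95 and 10.13 against 9.66, 9.27 and 8.51 (difference -0.86). Of the 12 genes 8 were lower (66.7%, against 59.5% of all genes), with a median of -0.44. That median was -0.90 without 12-week replicate 1 and -0.20 without 12-week replicate 3, and -0.09 in CGG90.

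**Figure D4:**
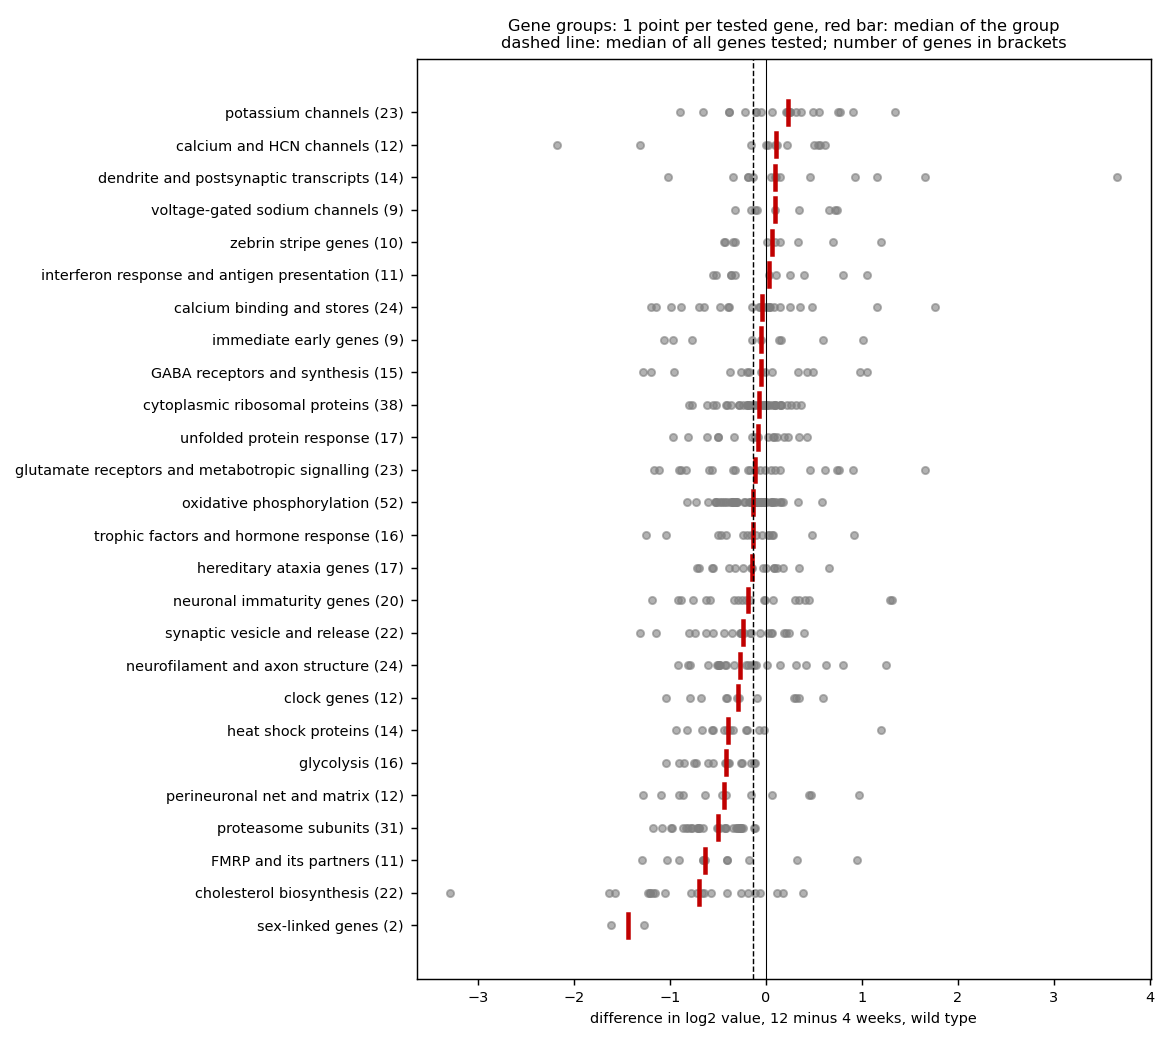
Difference in log2 value between 12 and 4 weeks in wild type for each tested gene (grey points) of 26 groups, with the group median (red bar) and the median of all genes (dashed line, -0.13). Medians run from -1.44 (2 sex-linked genes) and -0.70 (cholesterol) to 0.23 (potassium channels), and most groups spread across 0.

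Other groups stayed near the shift of all genes. Medians were -0.04 for calcium binding and stores (24 genes), 0.06 for zebrin stripe genes (10), -0.05 for immediate early genes (9), -0.13 for trophic factors and hormone response (16), 0.03 for interferon response and antigen presentation (11), -0.29 for clock genes (12) and -0.14 for hereditary ataxia genes (17). All of these changed sign under at least 1 other setting except the clock median and the zebrin median, which was -0.00 without 4-week replicate 3. Members without overlap were Thra, a thyroid hormone receptor (0.48), Nr1d2, a clock repressor (0.59), and Nr4a3, an immediate early gene (1.01), on the higher side. On the lower side were Ciart, a clock repressor (-1.04), Ier5, an immediate early gene (-0.97), Camk4, a calmodulin kinase (-1.14), Tbp, the TATA-binding protein (-0.70), Atm, a kinase of DNA repair (-0.55), and Calb1 and Aldoc, given above. The second probe set of Nr1d2 gave 0.04. Atm was near background, with means of 4.11 at 4 weeks and 3.56 at 12 weeks. Over all genes 5.06% and 9.83% did not overlap upwards and downwards. The 2 tested sex-linked genes, Eif2s3y (-1.61) and Kdm5d (-1.27), overlapped between the ages, with the low values of 12-week replicate 3 given above. Their median was -0.75 without 12-week replicate 3 and 0.01 without the filter on dim probe sets.

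Markers of oligodendrocytes, the myelin-forming glia, were lower in 13 of 14 cases with a median of -1.06. Cldn11, a myelin tight junction protein, had 10.43, 11.30 and 12.22 at 4 weeks and at most 10.21 at 12 weeks (-1.36). Olig1 (9.14, 10.22 and 11.20 against 8.79, 9.11 and 9.15) and Cnp (12.56, 13.10 and 13.50 against 12.60, 12.15 and 11.66) overlapped at 4-week replicate 1. The median was -0.54 in CGG90, and in wild type it was -1.78 without 4-week replicate 1 and -0.61 without 4-week replicate 3. Cells of the myelin lineage also make much cholesterol. List means at 4 weeks were 7.91, 9.40 and 10.51 for oligodendrocyte markers and 7.39, 8.43 and 8.57 for the cholesterol list. At 12 weeks they were 8.17, 8.35 and 8.50 for oligodendrocyte markers and 7.37, 7.52 and 7.14 for the cholesterol list. The marker covariate given above is the mean of 64 markers of several cell types, of which 14 are oligodendrocyte markers, so it is not specific to these cells. The part of oligodendrocyte RNA in the sterol values was not tested.
Blood cell markers were lower in 4 of 4 cases (median -1.68), with S100a9, a protein of granulocytes, at 4.37, 6.57 and 8.07 against 3.80, 3.67 and 5.06, and Hba-a2, an alpha globin, at 11.37, 10.98 and 11.54 against 10.03, 10.91 and 10.26. That median was -2.38 without 4-week replicate 1 and -1.04 without 4-week replicate 3. Medians of the other lists were -0.31 for granule cells, -0.24 for astrocytes and Bergmann glia, -0.63 for oligodendrocyte precursors, 0.30 for microglia, -0.08 for endothelial and mural cells, -0.14 for cerebellar interneurons and 0.26 for choroid plexus, each of which changed sign under at least 1 other setting.

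Genes whose libraries did not overlap between the ages in both genotypes, ordered by the smaller of both differences, were a further set. Here the rule used both contrasts, so the values are a description. Lower at 12 weeks in wild type and in CGG90 were Fdps (-3.29 and -2.33), Ak5, an adenylate kinase of brain (-2.57 and -2.30), Coro7, a coronin of the Golgi (-2.29 and -2.42, with -2.36, -2.07, 0.76 and 1.38 on other wild-type probe sets that reached 4 in any library), Atg7, an enzyme of autophagy (-1.97 and -2.05, with -0.49 on another wild-type probe set), Ets2, a transcription factor (-1.74 and -2.14), and Nav2, a neuron navigator (-1.69 and -1.94). Ak5 had 7.86, 7.48 and 7.57 at 4 weeks, 5.62, 5.77 and 5.94 at 8 weeks and 6.17, 5.98 and 3.05 at 12 weeks. Ets2 had 8.49, 8.56 and 8.94 at 4 weeks and 5.98, 7.47 and 7.32 at 12 weeks.
Higher in both were Kazald1 (1.75 and 1.83), Gm3912 (2.01 and 1.59), Tctn2, a protein of the ciliary transition zone (1.53 and 1.79), Twist1, a transcription factor (1.80 and 1.35), Bod1l (1.29 and 2.30) and Plekha3, a Golgi adaptor (1.22 and 1.28). Plekha3 had 7.63, 7.08 and 7.44 at 4 weeks, 8.47, 8.25 and 8.33 at 8 weeks and 8.84, 8.06 and 8.93 at 12 weeks, with 1.15 on its second probe set above background. Twist1 had 4.33, 4.64 and 3.62 at 4 weeks and 6.81, 5.24 and 5.95 at 12 weeks. Tctn2, Gm3912 and Bod1l were below 4 in every 4-week library.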

How the data were processed

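The authors deposited log2 values per probe set for 18 short-oligonucleotide arrays, made with GCRMA per the submitters' processing notes. This method removes background modelled on probe sequence and makes arrays comparable before probes are combined. Which arrays were normalised together, its version and settings are not given in the sources used here. Of 45101 probe sets, 34958 carried 1 gene symbol, 932 several and 9211 none in the platform annotation. Each gene was read from its brightest single-symbol probe set over the 18 libraries (18194 genes), and genes at log2 4 or more in at least 3 of 18 libraries were tested (10068). Checking symbols by gene ID changed 0.

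The test was limma's moderated linear model (version 3.58.1, R 4.3.3) over the 6 groups, two-sided, with 12 residual and 2.55 prior degrees of freedom, adjusted by Benjamini-Hochberg, threshold 0.05. A difference is a mean log2 value at 12 weeks minus that at 4 weeks. The fit was tested on simulated data. The number of arrays limits the precision. Other fits varied the filter, scaling, libraries, date block, weights, prior, marker covariate and probe set rule.

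Named genes were Fmr1, Pcp2, Rpl10a and Calb1, the 10 of smallest p in each direction, those of smallest p in each list, and up to 6 per direction without overlap in both genotypes. Further list members were named after their values were seen. The comparison and all 36 gene lists (767 entries, 670 with a probe set, 567 tested) were chosen with earlier results of these data known. List genes without a single-symbol probe set were not analysed here. Same-numbered replicates were not treated as pairs, since libraries of different ages came from different mice on different immunoprecipitation dates. Their residuals correlated at r of -0.036, 0.159 and 0.161. This cannot decide on pairing, because residuals within a group offset each other.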

Additional observations from a re-analysis of the deposited data

Results flagged for a closer look

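Nufip1, a nuclear partner of FMRP, differed in opposite directions between the genotypes. In wild type it had 7.18, 7.35 and 7.18 at 4 weeks and 6.15, 6.75 and 6.12 at 12 weeks, a difference of -0.90. In CGG90 it had 6.83, 6.41 and 6.87 at 4 weeks and 6.95, 9.29 and 7.19 at 12 weeks, a difference of 1.10 that includes the replicates 1 and 2 with Fmr1 at the wild-type level. The test of the difference itself gave an adjusted p of 1.000 (limma interaction). It was 1 of 16 genes, out of 10068 tested, that did not overlap downwards in wild type and upwards in CGG90, and 5 did the reverse. Taken singly, 9.83% of all genes did not overlap downwards in wild type and 6.02% upwards in CGG90.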

How the results depend on the processing

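The count of 0 genes became 7 without the filter (Csmd2, Golm2, Larp7, Pgk1, Rnf11, Sbds and Thoc1), 4 with array weights (Ddn, Golm2, Parp2 and Sbds), 3 with a trended and robust prior (Golm2, Pgk1 and Rnf11), and 0 to 4 when 1 library was left out: 4 without wild-type 12-week replicate 2 (Nmrk1, Sbds, Srrm1 and Wdr5) and 1 without 4-week replicate 3 (Ddn). It was 0 in the other fits run. Genes at an unadjusted p below 0.05 numbered 567 (without 12-week replicate 3) to 1216 (marker covariate). With the replicate number as a block in the 6 wild-type libraries, 0 genes passed and 705 had an unadjusted p below 0.05. For CGG90 the count of 0 became 1 without the filter, 3 with array weights and 0 to 7 when 1 library was left out (7 without CGG90 12-week replicate 3, 2 without wild-type 8-week replicate 2). The interaction count was 0 in every fit run, with 139 to 451 genes at an unadjusted p below 0.05. Of the named genes run under these settings, 3 reversed: Homer1 to -0.08 and Srebf2 to -0.25 in the mean of their probe sets, and both sterol regulators when 1 library was left out, Srebf2 ranging from -0.09 to 0.34 and Insig1 from -0.57 to 0.20. The cause of these differences was not tested. Medians ranged from -0.67 to -0.37 for the proteasome, -1.02 to -0.47 for cholesterol synthesis, -0.53 to -0.29 for glycolysis and 0.02 to 0.37 for potassium channels. Values below about 4 are near the background of the arrays. They limit the size of the differences of Ddn, Nectin4, Rev3l, Gpatch11, Fdps, Srebf2, Nav2, Atm, Gm3912, Tctn2 and Bod1l.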
